A study of Mus musculus with 8 samples.

Results

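Binding of the DEAD-box RNA helicase DDX5 to 3′ UTRs was described from eCLIPseq (enhanced cross-linking and immunoprecipitation) of intestinal epithelial cells (IECs). In eCLIPseq, UV light joins a protein to the RNA it touches, and RNA fragments pulled down with it by immunoprecipitation (IP) are sequenced. A size-matched input of RNA that skipped the IP serves as the background. A peak counted as a 3′ UTR peak when it overlapped a 3′ UTR exon, and no coding sequence or 5′ UTR, of any GENCODE M21 transcript on its strand (build GRCm38, with the stop codon taken as coding). There were 3344 such peaks among 26879 in 3 lists, which were kept apart.

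The small intestine list came from IECs of 8-week-old female wild-type C57BL/6 mice, with 2 CLIP and 2 input samples made by a paired-end protocol. The 2 colon lists, named mAb and rAb, each came from 1 CLIP and 1 input sample of colonic IECs on the C57BL/6 strain, made by a single-end protocol. The genotype label of the colon samples read wild type, whereas their growth protocol named 120-day-old Apcfl/+ CDX2Cre mice, in which Cre runs from the Cdx2 promoter of intestinal epithelium. The labels gave 1 antibody catalogue number for every CLIP sample, so what sets mAb apart from rAb was not known. All cells were released with EDTA. The lists held no value per replicate, and the colon file names marked each list as replicates 1 and 2 merged, so no test between conditions was possible and tissue, protocol and peak selection changed together. Intervals are exact 95% (Clopper-Pearson) and cover counting error only.

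The 3′ UTR is the stretch of an mRNA after the stop codon, where RNA-binding proteins and microRNAs act on stability, translation and localisation. DEAD-box helicases unwind short RNA duplexes with ATP and mostly touch the RNA backbone, so no fixed sequence motif is textbook knowledge for DDX5. AU-rich elements in 3′ UTRs are known to shorten the life of immediate-early and cytokine mRNAs.

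The labelled cell type was checked on markers in any called peak. All 8 epithelial markers (Epcam, Vil1, Cdh1, Krt8, Krt18, Krt19, Krt20 and Cldn7) had peaks in both colon lists, and 6 of 8 had them in the small intestine. These markers carried 126 mAb, 72 rAb and 42 small intestine peaks. The small intestine list had no peak on the 6 leukocyte, 5 stromal, 3 muscle or 2 erythrocyte markers. In the colon, 4 of 5 stromal markers (Col1a1, Col1a2, Col3a1 and Pdgfra) carried 83 mAb and 68 rAb peaks. Of the others, the leukocyte marker Lyz2 had 4 and 5 peaks, Hbb-bs 1 in each list, and the muscle markers Acta2 and Myh11 had 3 together in mAb alone. Their part in the colon results below was not tested.

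The mAb list held 1983 3′ UTR peaks of 16455 (12.1%, 11.6 to 12.6) on 1267 genes. The rAb list held 1256 of 9146 (13.7%, 13.0 to 14.5) on 825 genes, and the small intestine list 105 of 1278 (8.22%, 6.77 to 9.86) on 60 genes. The deposited small intestine table marked 104 of the 105 peaks as 3′ UTR itself. The peaks were short. Their median width was 53 bases in both colon lists and 57 in the small intestine, and nearly all lay wholly on a 3′ UTR exon (1977, 1254 and 104 peaks). In 245 mAb, 162 rAb and 6 small intestine peaks the same bases were also intronic in another transcript.

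Sites were defined as peaks with both −log10 p and log2 fold of IP over input above 3, the cutoff of the study. In the mAb list, 5 of 1983 3′ UTR peaks were sites (0.252%, 0.0819 to 0.587), where 1.22% of all peaks in that list were. In the rAb list, 8 of 1256 were sites (0.637%, 0.275 to 1.25), against 1.99% of all peaks. Peaks outside 3′ UTRs were sites in 1.35% of cases for mAb (1.17 to 1.56) and 2.21% for rAb (1.89 to 2.55). Coding sequence peaks were sites in 0.573% of cases for mAb and 1.65% for rAb. The share of sites among 3′ UTR peaks was thus below the share over the whole list in each colon list. The small intestine list had been cut at the same thresholds before it was deposited, so every peak passed (100%). With a log2 fold above 4 in its place, 74 of the 105 3′ UTR peaks passed (70.5%, 60.8 to 79.0), against 60.9% of all peaks in that list and 34.2% of coding sequence peaks.

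To show what lay under the colon and small intestine sites, the 30 bases at the middle of the leading ones are printed below, 5′ to 3′ on the transcribed strand of GRCm38, read from the RefSeq assembly. Capitals mark GGGG or longer runs of G, runs of 5 or more T, ATTTA (the core of an AU-rich element) and TGTANAT (the core that Pumilio proteins recognise), searched on this strand only. The first 9 are every colon site outside Lars2.
B4galt4 (mAb, chr16:38768566-38768595, plus strand): tggcagcggtccccgtgctggctgctgcca
Mcl1 (mAb, chr3:95662837-95662866, plus strand): ggctgggcaaGGGGctgctttggagggaag
Btg2 (mAb, chr1:134077026-134077055, minus strand): taaaaGGGGattcttggctgatccccccag
Myh9 (mAb, chr15:77761334-77761363, minus strand): tgcctctgctcctccgactgtaaaccgtct
Tmem158 (rAb, chr9:123259540-123259569, minus strand): cgcagagaggcacaaatgaggtgggaaagt
Ist1 (rAb, chr8:109672309-109672338, minus strand): actcttcctcGGGGctctctgctgctctac
Hipk1 (rAb, chr3:103743713-103743742, minus strand): ttttaattctttattcttgtgacagcattt
Tmbim6 (rAb, chr15:99409786-99409815, plus strand): cagactccacctcttgtgcTTTTTTgcttg
Slc25a37 (rAb, chr14:69243514-69243543, minus strand): ttgagaacctccgtcctttccgctttgttt
The next 11 are the highest small intestine site of each of the 11 leading genes by log2 fold outside Lars2.
Npas2 (chr1:39362262-39362291, plus strand): gacaggaaccaagtgtccccgtgttggcac
Pigr (chr1:130851951-130851980, plus strand): gaagaagaagaagaagaagaaagacagaca
Mgam (chr6:40768421-40768450, plus strand): tatatgactcccaaagataatatctctact
Epcam (chr17:87650896-87650925, plus strand): ttaaagtgagtttctaagtttgtttgaatc
Rfk (chr19:17401187-17401216, plus strand): ttttggaattacatgatgtgtgATTTAggg
Slc5a1 (chr5:33161128-33161157, plus strand): tgtgattataggcttgctggaggaaagtga
Sec23a (chr12:58959732-58959761, minus strand): gtcttgtatgATTTAattatgtttaatgag
Ctnnb1 (chr9:120960102-120960131, plus strand): gttagTTTTTaagtagtgttatgttctagt
Eif4g2 (chr7:111072219-111072248, minus strand): tggttgttgccgtaatagtatattgcctgt
Azin1 (chr15:38489883-38489912, minus strand): tgTGTAAATttgtgcttttgaactgtagtt
Anxa4 (chr6:86737470-86737499, minus strand): tttcctcgtttgtgttttgtagaggttgaa
Among the 9 colon sequences, GGGG stood in those of Mcl1, Btg2 and Ist1. Among the 11 of the small intestine, none held GGGG and 8 held at least 10 T of 30, with 16 in Ctnnb1 and 15 in Sec23a, Azin1 and Anxa4. Pigr was the exception at the other end, with a repeat of gaa and no T. Over all 105 small intestine peaks, 32.2% of bases in 100-base windows were T, which is near 10 of 30. GGGG stood in 35.2% of those windows, so the 11, picked by log2 fold, do not stand for the whole list.

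In the small intestine, the 105 peaks ran from a log2 fold of 3.003 to 6.88 with a median of 4.57, and the median −log10 p was 13.6. The median over all 1278 peaks of the list was 4.29, that of 406 coding sequence peaks 3.73 and that of 155 distal intron peaks (over 500 bases from an exon) 5.22. The highest 3′ UTR peak lay on Npas2, a clock transcription factor, at chr1:39362246-39362308 at a log2 fold of 6.88, where −log10 p was 16.3. It was the only peak of Npas2 and lay 269 bases after the stop codon of a 1229-base 3′ UTR.

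**Figure D1:**
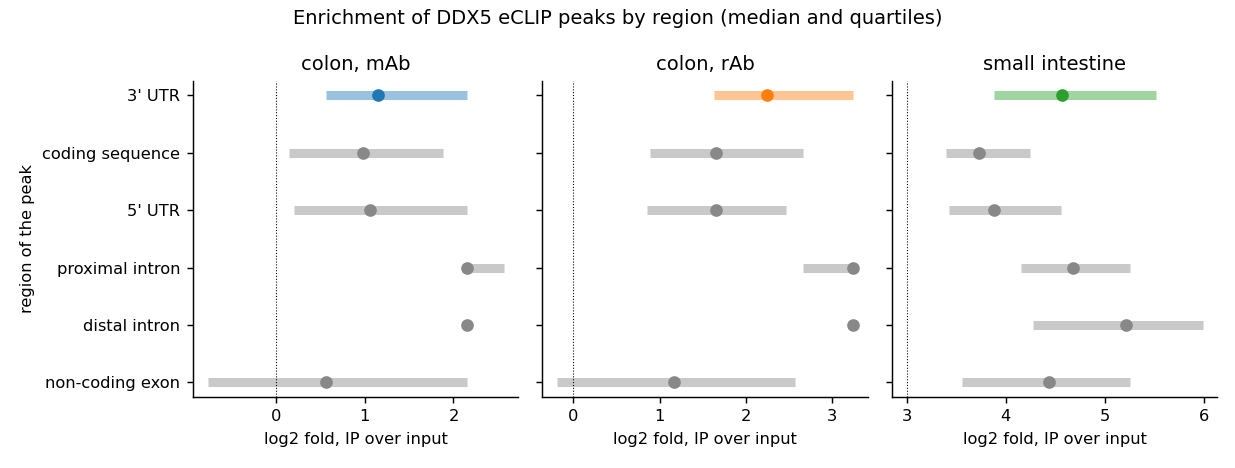
Median (point) and quartiles (bar) of the deposited log2 fold of IP over input for peaks of each region, in the mAb, rAb and small intestine lists, with dotted lines at 0 in the colon and 3 in the small intestine. The 3′ UTR medians were 1.15, 2.24 and 4.57, above those of coding sequence (0.98, 1.65 and 3.73) and below those of distal introns (2.15, 3.24 and 5.22).

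Among the small intestine genes of highest log2 fold, Pigr, the receptor that carries IgA across the epithelium, had 4 peaks with log2 folds of 3.69, 5.40, 6.26 and 6.61. All 4 were at the cap of 400 in −log10 p, and no other 3′ UTR peak of the list was at the cap. Mgam, the brush border maltase-glucoamylase, had 3 peaks up to 6.60, and Slc5a1, the sodium-glucose cotransporter, had 3 up to 6.45. Gda, guanine deaminase, had the most peaks of any gene. Its 6 peaks had log2 folds of 3.94, 4.35, 4.55, 5.29, 5.34 and 6.02 and were spread from 180 to 3822 bases after the stop codon of a 3881-base 3′ UTR.

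Listed gene groups were read against all protein-coding genes with a peak in the small intestine, of which 60 of 438 had one in the 3′ UTR (13.7%, 10.6 to 17.3). Of 19 cell junction genes, 10 had a peak and 3 a 3′ UTR peak. Their 7 peaks had a median log2 fold of 4.22, against 4.57 over all 3′ UTR peaks. Ctnnb1, β-catenin, had 4 peaks with log2 folds of 4.04, 4.09, 5.08 and 6.30. Cdh1, E-cadherin, had a pair of neighbouring peaks at 5.72 and 4.22, at 123 and 69 bases from the annotated end. Cdh17, the liver-intestine cadherin, had 1 peak at 3.24. Epcam, the epithelial cell adhesion molecule, was on the list of epithelial markers and had 4 peaks at 4.25, 4.34, 4.46 and 6.49 within a 660-base 3′ UTR.

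Immediate-early genes, whose mRNAs rise and decay quickly after a stimulus, had 3′ UTR peaks in 5 of 18 listed genes in the small intestine, where 10 of the 18 had a peak, with a median of 4.46 over 7 peaks. Klf6 had 3 peaks (4.51, 4.89 and 5.50), Zfp36, which encodes the AU-rich element binding protein tristetraprolin, had 1 at 4.46, and Jun had 1 at 4.03. Junb had 1 at 3.53 and Ier2 had 1 at 3.42. Of 16 lipid uptake and lipoprotein genes, 9 had a peak and 2 a 3′ UTR peak. These were Fabp2, the intestinal fatty acid-binding protein, at 4.10, and Mttp, which loads lipid onto lipoproteins, at 3.56, both below the median of 4.57. Of 22 selenoprotein genes, whose 3′ UTRs carry the SECIS hairpin for selenocysteine insertion, 1 had a peak of any region. This was Selenop, which had 2 3′ UTR peaks at 3.96 and 4.39. None of the 16 keratin, actin and brush border genes, 8 goblet cell genes, 6 iron genes or 32 hnRNP, SR and other RNA-binding protein genes had a 3′ UTR peak there. A peak of some region was present for 9, 1, 1 and 11 of them, and over all genes with a peak the share was the 13.7% given above. None of the 5 genes followed up by the study (C3, Fabp1, Ahcyl1, Shroom3 and Ddx5) had a 3′ UTR peak in the small intestine. Only 1 of them, Fabp1, had a peak of any region there.

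**Figure D2:**
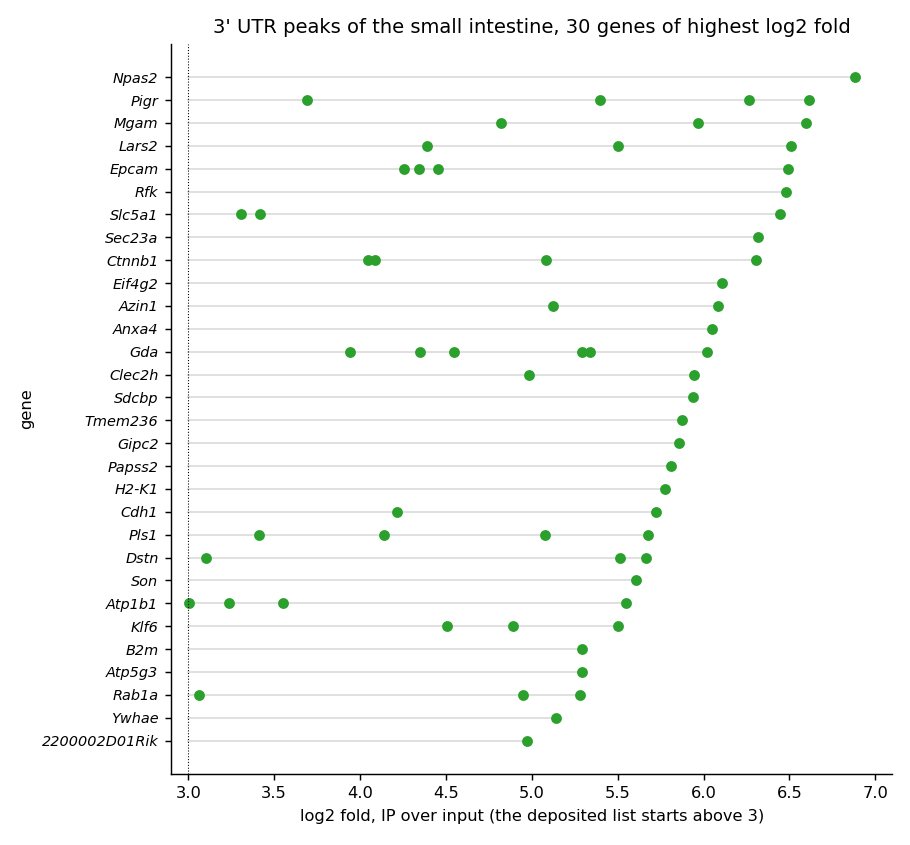
Log2 fold of IP over input of each 3′ UTR peak of the small intestine (points) for the 30 genes with the highest values, 1 row per gene. Npas2 reached 6.88, and genes with several peaks such as Pigr (3.69 to 6.61) and Gda (3.94 to 6.02) covered much of the range.

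The peaks were unevenly spread over genes. In the small intestine 37 of 60 genes had 1 peak, 10 had 2, 6 had 3, 6 had 4 and Gda had 6. For 23 of the 60 genes (38.3%) every peak of the gene was in the 3′ UTR, among them Gda, Npas2, Rfk (riboflavin kinase) and Sec23a (a COPII coat subunit). In the colon lists this held for 369 of 1267 genes (29.1%, mAb) and 376 of 825 (45.6%, rAb). Spock2, a secreted proteoglycan, had 9 peaks with mAb and 8 with rAb, and Scd2, a fatty acid desaturase, had 9 in the rAb list. The peaks of Spock2 had median log2 folds of 0.56 (mAb) and 1.12 (rAb), and none was a site.

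Where a gene had both 3′ UTR and coding peaks in a list, its median 3′ UTR log2 fold was above its median coding log2 fold for 446 of 719 genes (62.0%) with mAb and 232 of 369 (62.9%) with rAb. The median difference, 3′ UTR minus coding, was 0.42 on the log2 scale in both. In the small intestine it was above in 21 of 28 genes (75.0%), with a median difference of 1.10, among peaks that had all passed the cutoff. These differences lie within a gene, and peaks of a gene share their libraries. They were not split by the reads behind a peak, which were few in the colon, as given below. Over all traced colon peaks with at least 10 IP reads, the 3′ UTR median was not above the coding median. The 2 medians were 1.22 and 1.34 for mAb, and 1.65 and 1.65 for rAb. Peaks without traced reads had low folds and are missing from these medians, and low folds were commoner among coding peaks. Log2 folds below 0 made up 22.2% of mAb coding and 8.17% of mAb 3′ UTR peaks, and 8.54% and 1.67% in rAb. How far that shaped the 2 medians was not tested.

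The colon peaks rested on few reads. Whole reads were traced from the pairs of deposited values, which could not be done for 268 mAb (13.5%) and 26 rAb 3′ UTR peaks (2.07%) with a −log10 p of 0. Their log2 folds ran from -2.09 to 0.24 (mAb) and from -1.92 to 0.07 (rAb), and they are left out of every value by reads, so medians by reads leave out the lowest folds. Over the traced peaks the median was 3 IP reads per 3′ UTR peak in each list, with 434 traced mAb and 306 traced rAb peaks at 3 IP reads over 1 input read. An input of 1 stands for 0 or 1 read. At least 10 IP reads stood behind 85 mAb peaks (4.99%) and 51 rAb peaks (4.15%), and 8.38% and 8.00% of all traced peaks in these lists had as many. The input library held 1.48 times as many reads as the IP in mAb and 3.15 times as many in rAb, so a peak of 3 over 1 reads had a log2 fold of 2.15 in one list and 3.24 in the other. That difference in depth moves with the higher median of the rAb list (2.24 against 1.15). With at least 10 IP reads the medians were 1.22 (mAb) and 1.65 (rAb), and those of coding sequence peaks were 1.34 and 1.65. No traced peak of the mAb list with fewer than 10 IP reads was a site, and none of the rAb list with fewer than 7. Among traced 3′ UTR peaks with at least that many, 5 of 85 mAb peaks (5.88%, 1.94 to 13.2) and 8 of 107 rAb peaks (7.48%, 3.28 to 14.2) were sites, and over all regions 16.8% and 14.9% were.

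The 5 mAb sites lay on 5 genes. B4galt4, a galactosyltransferase, had 14 IP reads over 1 input read at chr16:38768563-38768599, a log2 fold of 4.37. Mcl1, an anti-apoptotic BCL2 family member, had 11 over 1 (4.02), and Btg2, an antiproliferative immediate-early gene, had 17 over 2 (3.65). Myh9, the non-muscle myosin heavy chain, had 13 over 2 (3.26). These 4 had −log10 p between 3.46 and 4.88. The remaining site, on Lars2, is given below. In the rAb list, Tmem158 had 8 IP reads over 1 (4.65), Ist1 and Hipk1 each 7 over 1 (4.46), Tmbim6 (BAX inhibitor 1) 13 over 4 (3.35) and Slc25a37 (mitoferrin 1) 11 over 4 (3.11), with −log10 p between 3.52 and 5.09. Repeat-masked bases made up 53.1% of the Hipk1 site. Just outside the cutoff by fold in the mAb list was a Lars2 peak at 2.94. In the rAb list 390 peaks had a log2 fold above 3 without the −log10 p, against 27 for mAb.

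Lars2, which encodes the mitochondrial leucyl-tRNA synthetase, was the one gene with a 3′ UTR site in every list. In the small intestine its 3 peaks lay at chr9:123461795-123461822 (6.51), chr9:123461868-123461895 (4.39) and chr9:123461896-123461917 (5.50). In the rAb list 3 sites lay at chr9:123461822-123461828 (45 IP reads over 9, 3.98), chr9:123461829-123461859 (45 over 12, 3.56) and chr9:123461860-123461941 (64 over 16, 3.65), with −log10 p of 22.9, 20.8 and 30.2. In the mAb list the site at chr9:123461881-123461890 had 72 IP reads over 13 (3.03) and a −log10 p of 15.7, and peaks beside it reached 2.94, 2.91 and 2.56. The middle of the widest rAb site, printed because this stretch carried peaks in all 3 lists, read as follows.
Lars2 (chr9:123461886-123461915, plus strand): gaccgtgaaagcGGGGcctcacgatccttc
This stretch was not unique. With 15 bases on either side, these 3 rAb sites had 4, 5 and 2 further copies on the chromosomes of the reference, at 90% identity or more over at least 90% of their length, and the mAb site had 3. In the small intestine the lower peaks, at 4.39 and 5.50, had 3 each, and the highest, at 6.51, had none. It is background knowledge that this stretch resembles 28S ribosomal RNA, of which the reference annotation holds only a part. A search against 356 annotated ribosomal RNA sequences matched 13 mAb, 7 rAb and 0 small intestine 3′ UTR peaks, and no site. With 28S only partly annotated, that search cannot show whether Lars2 resembles it. Reads from another copy could have been counted as reads of Lars2 at the peaks with a copy, and whether they were was not tested. Without Lars2, 4 mAb and 5 rAb sites remained, and no pair of lists shared a 3′ UTR site.

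Of the 105 small intestine peaks, 10 on 7 genes had such a copy elsewhere. Besides Lars2 they were on Pigr, H2-K1, H2-Q2, Atp5g3, Dstn and Sdcbp. A Pigr peak in a simple repeat (chr1:130851821-130851907, all of it repeat-masked) had 2333 copies, and the peak printed above, also wholly masked, had 2. The other Pigr peaks, at 3.69 and 6.26, had none. H2-K1 and H2-Q2 are class I histocompatibility genes with close paralogs, and their reads could have been split or shared.

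Sharing between the colon lists was counted for 3′ UTR peaks alone. The same shares over peaks of other regions were not computed, so whether these differ was not tested. Overlap by at least 1 base on the same strand held for 292 of 1983 mAb peaks (14.7%, 13.2 to 16.4) and 295 of 1256 rAb peaks (23.5%, 21.2 to 25.9). The lists shared 454 genes, 35.8% of the mAb and 55.0% of the rAb genes. Overlap went with reads. A peak of any region in the rAb list overlapped 37 of 890 mAb peaks with 3 IP reads (4.16%, 2.94 to 5.69), 119 of 728 with 4 to 9 (16.3%, 13.7 to 19.2) and 60 of 85 with at least 10 (70.6%, 59.7 to 80.0). In the other direction the shares were 13.0%, 31.4% and 82.4%. Of the peaks with a −log10 p of 0, whose reads were not known, 76 of 268 mAb (28.4%, 23.0 to 34.2) and 16 of 26 rAb peaks (61.5%, 40.6 to 79.8) overlapped a peak of the other list. Over the 304 overlapping pairs of 3′ UTR peaks the log2 folds had a Spearman rho of 0.48 and a Pearson r of 0.52, as a description of pairs that share genes and tissue. The pairs past the cutoff in both lists were on Lars2.

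**Figure D3:**
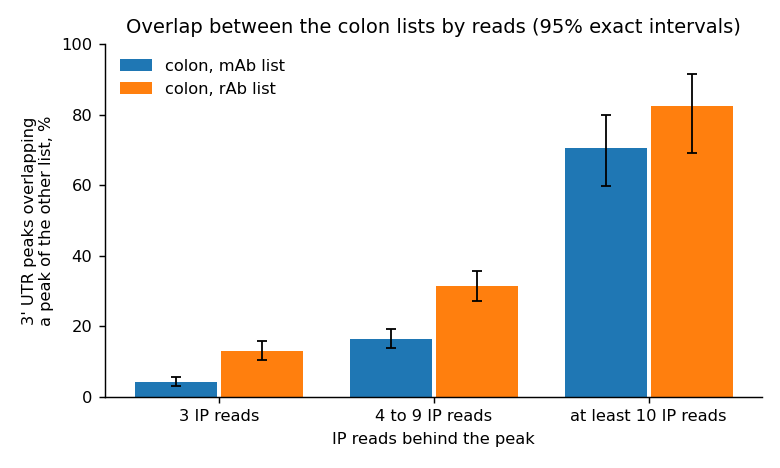
Share of traced 3′ UTR peaks of each colon list that overlapped any peak of the other list (bars, with exact 95% intervals), by the IP reads behind the peak. The mAb share rose from 4.16% at 3 reads to 70.6% at 10 or more, and the rAb share from 13.0% to 82.4%.

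**Figure D4:**
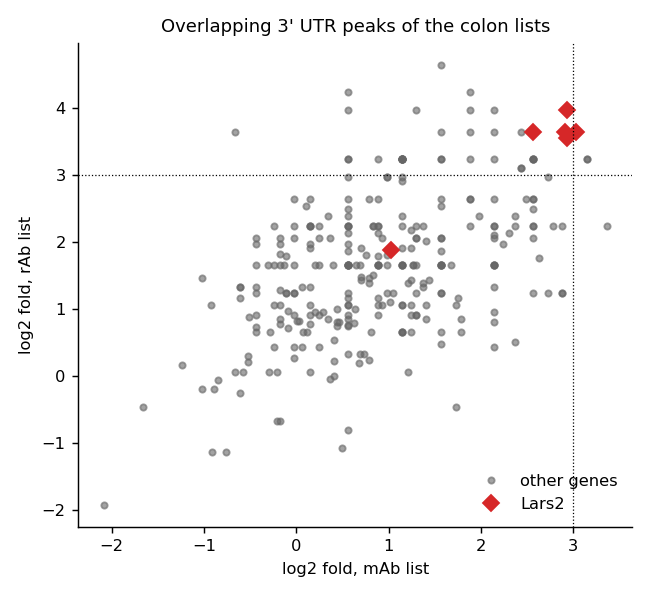
Log2 fold of overlapping 3′ UTR peaks in the mAb (x axis) and rAb (y axis) lists, 1 point per overlapping pair, with dotted lines at the cutoff of 3. Of the 304 pairs, those of Lars2 are drawn as diamonds, and most sit at the upper right with values up to 3.03 and 3.98.

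Between tissues, 35 of the 105 small intestine 3′ UTR peaks overlapped a 3′ UTR peak of the mAb list (33.3%, 24.4 to 43.2) and 22 one of the rAb list (20.95%, 13.6 to 29.99). A peak of any region in at least 1 colon list overlapped 41 of them (39.0%, 29.7 to 49.1), and 146 of 406 coding peaks of the small intestine (36.0%, 31.3 to 40.8). The intervals of the 2 shares overlapped. The 3′ UTR peaks with a colon counterpart had a median log2 fold of 4.09, and the 64 without had 4.92. Peaks in both colon lists overlapped 19 small intestine peaks on 12 genes, Actr2, Atp1b1, Cdh1, Ctnnb1, Epcam, Ier2, Jun, Lars2, Muc13, Pigr, Stard4 and Ywhae. At 3 of these places the colon values were as follows. The Jun peak, at 4.03 in the small intestine, had 15 IP reads over 12 in mAb (0.89) and 5 over 7 in rAb (1.17). The Epcam peak at 4.46 had 12 over 11 (0.69) and 6 over 15 (0.33), and the Ctnnb1 peak at 4.04 had 11 over 15 (0.12) and 9 over 18 (0.65). Actr2, a subunit of the actin-nucleating Arp2/3 complex, was higher, with log2 folds of 2.63 (mAb), 1.77 (rAb) and 3.89 in the small intestine.

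At the level of genes, 18 had a 3′ UTR peak in all 3 lists. Ranked by the lowest of their best log2 folds, Lars2 came first (3.03), followed by Rfk (2.89), Stard4 (2.15), Actr2 and Muc13 (2.07 each). Stard4 carries cholesterol between membranes, and Muc13 is a transmembrane mucin. The Rfk peaks did not coincide, since the colon peaks lay 508 to 1073 bases after the stop codon and the small intestine peak at 1598.

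In the colon, 25.6% of 4950 protein-coding genes with a mAb peak and 24.2% of 3408 with a rAb peak had one in the 3′ UTR, the median log2 fold over all 3′ UTR peaks was 1.15 and 2.24, and 0.252% and 0.637% of them were sites. At those shares of sites, a count of 0 among the peaks of a list is near the share over all 3′ UTR peaks. The listed gene groups varied in their number of peaks. A mAb and a rAb peak of any region were present for 17 and 15 of 19 cell junction genes. For 18 immediate-early genes the counts were 17 and 11, and for 32 RNA-binding protein genes 32 and 29. They were 14 and 12 of 16 keratin, actin and brush border genes, and 13 and 4 of 22 selenoprotein genes. Lipid uptake genes had only 3 and 2 of 16, goblet cell genes 7 and 4 of 8, and iron genes 5 and 3 of 6. Cell junction genes had 3′ UTR peaks in 13 of 19 genes (31 peaks, median 0.56) for mAb and 9 of 19 (19 peaks, median 1.07) for rAb, and none was a site. Immediate-early genes had 16 peaks on 9 of 18 genes in mAb (median 1.26), of which the Btg2 peak was a site, and 8 peaks on 5 genes in rAb (median 1.29), none a site. RNA-binding protein genes had 28 peaks on 16 of 32 genes (mAb, median 0.51) and 20 on 12 (rAb, median 1.65), none a site. The 3 Actb peaks had log2 folds of -0.89, -0.57 and -0.30 in mAb and -0.19, 0.07 and 0.07 in rAb, and with 4 further mAb peaks on Krt8, Krt18, Ezr and Eps8 they were the colon 3′ UTR peaks of the keratin, actin and brush border list (medians -0.17 and 0.07). Ddx5 itself had 5 peaks in mAb (-0.28 to 1.89) and 2 in rAb (0.81 and 1.65), and Ahcyl1, also followed up by the study, had 2 in rAb (2.46 and 3.24), neither a site. Selenoproteins had 5 peaks in mAb (median 0.89) and 1 in rAb, on Txnrd1. Lipid uptake genes had none in either list, and Muc2 (goblet cells, 1.34) and Tfrc (iron uptake, 3 peaks with a median of -0.17) had peaks in mAb, while no goblet cell or iron gene had one in rAb.

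Along the 3′ UTR, measured on the longest annotated form, the median position from stop codon to end was 42.2% for mAb, 42.2% for rAb and 46.2% for the small intestine. With the 3′ UTR cut into 5 equal parts, the first part held 25.01% of mAb, 25.0% of rAb and 24.8% of small intestine peaks. The last part held 12.9%, 12.6% and 12.4%. In the small intestine the fall was uneven, with 26, 17, 30, 19 and 13 peaks in the 5 parts from first to last. Within 100 bases of the annotated end lay 67 mAb (3.38%), 33 rAb (2.63%) and 5 small intestine peaks (4.76%), where the length of the same 3′ UTRs would place 7.24%, 7.08% and 9.38%. The share near the end was thus below that of the length in both colon lists, and in the small intestine it rested on 5 peaks. Within 100 bases of the stop codon lay 138 mAb (6.96%), 106 rAb (8.44%) and 4 small intestine peaks (3.81%). The length would place the same shares there as at the end. Position was taken at the middle of a peak, so the outermost bases at either end could hold few peaks. Which annotated 3′ ends the cells used was not analysed here.

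Guanine stood out at the middle of the peaks. In 100-base windows centred on the peaks, 28.0% of bases were G in both colon lists and 26.6% in the small intestine, against 23.2%, 23.2% and 22.3% in windows tiled over the 3′ UTRs of the same genes. Adenine was lower at the peaks, at 21.5%, 21.3% and 24.4% against 25.4%, 25.3% and 27.3%. GGGG occurred in 41.1% of mAb windows (38.9 to 43.3), 38.7% of rAb windows (36.0 to 41.5) and 35.2% of small intestine windows (26.2 to 45.2), and in 26.0%, 25.7% and 22.2% of the windows of the same genes. ATTTA occurred in 6.45%, 6.13% and 17.1% of peak windows and in 13.1%, 12.7% and 16.3% of the background, so it was scarcer at colon peaks and close to background in the small intestine. The poly(A) signal AATAAA was in 2.98%, 2.23% and 5.71% of windows, against 5.29%, 5.22% and 6.59%. In the small intestine the peaks also held less cytosine (16.7% against 20.6%) and more uracil (32.2% against 29.8%). Windows of TGTANAT were 3.18%, 3.82% and 8.57%, against 5.12%, 5.08% and 6.09%.

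**Figure D5:**
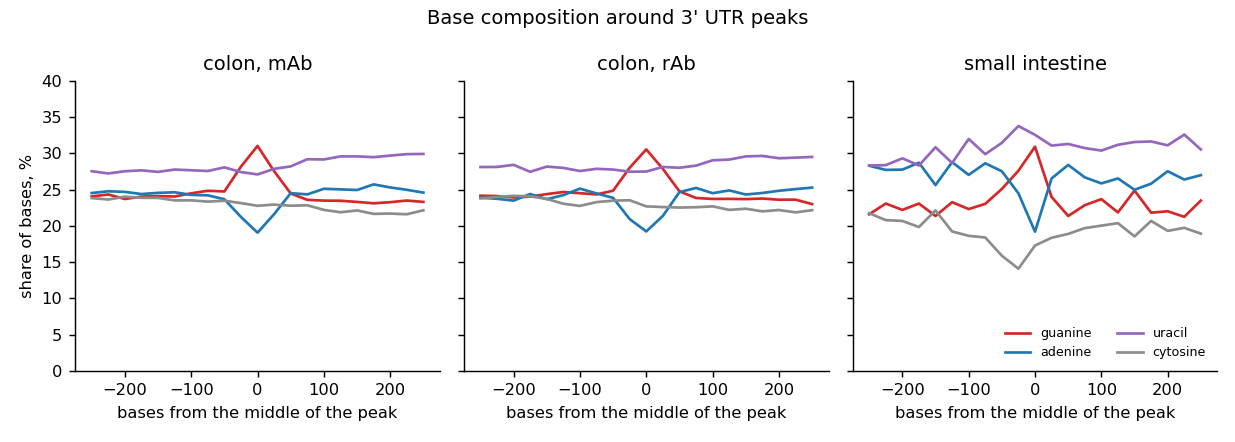
Share of each base (y axis, %) in 25-base steps from 250 bases before to 250 bases after the middle of 3′ UTR peaks (x axis), for the 3 lists. Guanine peaked at the middle, at 31.0%, 30.6% and 30.9%, and adenine was lowest there, at 19.1%, 19.2% and 19.2%.

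The share of peaks with GGGG did not rise with the enrichment over input. In the mAb list GGGG stood in 42.0% of 162 peaks with a log2 fold at or below 0 (34.3 to 49.97), 41.7% of 1150 between 0 and 2 (38.9 to 44.7) and 39.8% of 671 above 2 (36.1 to 43.6). In the rAb list it was 57.1% of 21 peaks at or below 0 (34.0 to 78.2), 43.2% of 468 between 0 and 2 (38.6 to 47.8) and 35.5% of 767 above 2 (32.1 to 39.0). In the small intestine the 53 peaks at or above the median log2 fold held GGGG in 22.6% (12.3 to 36.2), and 35.3% of their bases were uracil. The 52 below the median held GGGG in 48.1% (34.0 to 62.4), with 29.2% uracil. The proximal intron peaks of the small intestine held GGGG in 85.7% of windows, distal introns in 61.3% and coding sequence in 32.8%. In the colon, GGGG stood in 56.3% (mAb) and 46.3% (rAb) of proximal intron windows. It stood in 35.6% and 33.3% of distal intron windows, and in 31.3% and 30.7% of coding windows. Bases at colon coding peaks were 29.3% (mAb) and 29.2% (rAb) G, so a high G content was not particular to 3′ UTR peaks. In the mAb list, peaks at or below a log2 fold of 0 were 29.1% G, and those above 2 were 27.3% G. Whether cross-linking, RNase or ligation preferences enter these shares was not tested.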

How the data were processed

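eCLIPseq peaks of DDX5 were taken from 3 deposited lists. According to the study's methods, CLIPper defined peaks on IP reads, and the authors normalized IP and input reads for depth. The processing notes named cutadapt 1.9.1, STAR 2.4.0i, SAMtools 1.4.1 and build mm10. The deposited log2 values are the fold of IP over input, and the deposited −log10 p values are capped at 400. The authors merged the small intestine replicates by Irreproducible Discovery Rate, and that list holds only peaks above 3 in both values. Another peak list, with 2 columns of values that no label names, was not used. Library totals were not given in the sources used here.

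Regions came from GENCODE M21 by overlap on the strand. Colon reads were traced as whole IP and input reads that gave both deposited values, within 1% of −log10 p. The commonest log2 fold of each list was taken as 3 IP reads over 1 input read, and the depth ratio follows from that. The tracing gave reads for 99.1% of 13011 mAb peaks and 99.6% of 8282 rAb peaks. It was tested on simulated data in which 3 over 1 was also the commonest pair, so that test could not check the assumption. Repeated sequence was searched with BLAST+ 2.17.0, intervals were computed with scipy 1.17.1 and figures drawn with matplotlib 3.10.9. Windows of 100 bases were compared with all non-overlapping windows of the 3′ UTRs of genes with a peak. With 1 list per group, no test was run.

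Members and gene lists were chosen with earlier results of these data known. The text names all colon sites, the 15 small intestine genes of highest log2 fold, the 5 genes with most peaks per list, genes in all lists and the listed genes. A further rule, the lowest log2 folds among peaks with a −log10 p above 3 in a colon list, named no depleted peak, since those had a −log10 p of 0.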

Additional observations from a re-analysis of the deposited data

How the results depend on the processing

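Of 114 alternative values, 78 stayed close to the value reported (counts within 1.5 times, medians and shares within their 95% intervals) and 36 moved further. The 1 change of sign was the ATTTA difference of the small intestine, from 0.81 to -2.92 percentage points in 200-base windows, which lies within the 95% interval of the reported value. With a −log10 p above 5, mAb sites were 1 and rAb sites 4. With a log2 fold above 4 they were 2 and 3, with a log2 fold above 1 they were 14 and 20, and with an adjusted p under 0.05 in place of the p the rAb sites were 15. The rAb sites were 5 without Lars2 and 5 without peaks with a near copy, both chosen after seeing the data. Median log2 folds were 1.22 (mAb) and 1.65 (rAb) for traced peaks with at least 10 IP reads, and 1.22 (mAb) with 1 value per gene. Median positions were 46.6% (mAb) and 47.0% (rAb) on the shortest 3′ UTR, 62.7% and 51.8% for sites alone, and 39.6% (mAb) on the longest protein-coding form, chosen after seeing the data. The GGGG excess, in percentage points, was 15.1 (mAb), 13.0 (rAb) and 13.0 (small intestine). It was 19.3 (mAb) and 16.9 (rAb) against windows of all protein-coding genes, and 9.70 (rAb) in 200-base windows. For sites alone the mAb excess was 34.0, which rested on 3 of 5 windows, and 3 of 8 rAb windows held GGGG. The ATTTA difference was -6.63 (mAb) and -6.55 (rAb), and moved to -8.89 and -9.21 against all genes and -8.07 (rAb) in 200-base windows. For sites alone the ATTTA difference was -13.1 and -12.7, where 0 of 5 mAb and 0 of 8 rAb windows held ATTTA. Those 2 values are therefore the background shares with a minus sign and rest on too few windows to show a larger difference. With reciprocal overlap of 50%, overlapping peaks fell from 292, 33 and 20 to 188 (mAb with rAb), 17 (mAb with small intestine) and 13 (rAb with small intestine). Past the cutoff in both lists they were 1, 1 and 2, and 0 in each without Lars2, and mAb and rAb shared 454 genes. The few reads behind colon peaks limit every colon value. No paired analysis was possible because the deposited lists merge replicates and hold no value per replicate, and leaving out a replicate was not possible for the same reason.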
